A study of Mus musculus with 3 samples.

Results

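Scavenger receptors and the mannose receptor are surface proteins with which macrophages bind and take up modified lipoproteins, microbes, dying cells and glycoproteins. The 8 genes described here were Mrc1, Marco, Msr1, Cd36, Scarb1, Stab1, Olr1 and Scara3, chosen by name from the 34821 gene names on the array. Their RNA was measured in bone marrow-derived macrophages (BMDMs) of C57BL/6J mice, grown with macrophage colony-stimulating factor and then stimulated for 20 h. The conditions were CpG DNA alone (CpG), interferon-γ plus an antibody that blocks the interleukin-10 receptor (IFN-γ with αIL-10R, drawn as IFN-γ + αIL-10R), and all of these agents together (Triple). Each condition had 1 array, so no difference has a replicate check and no test was made, and no unstimulated array was part of the comparison. The labels do not give the number or age of the mice behind each array. The CpG array therefore differs from the Triple array by both IFN-γ and the antibody, and the IFN-γ with αIL-10R array by CpG.

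The receptors fall into groups by structure. MRC1, also called CD206, is a C-type lectin that binds glycans that end in mannose and is widely used as a marker of macrophages activated by interleukin-4. The class A receptors MARCO, MSR1 and SCARA3 have collagen-like stalks, and MARCO and MSR1 also bind bacteria. The class B receptors CD36 and SCARB1 bind oxidised lipoproteins and high-density lipoprotein, OLR1 is the lectin-like receptor for oxidised low-density lipoprotein, and STAB1 is a large receptor that clears acetylated lipoprotein and extracellular matrix products. Stimulation through Toll-like receptor 9, the sensor of CpG DNA, and through the IFN-γ receptor changes many surface receptors of macrophages.

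Of the 8 genes, 6 were detected on every array, meaning a signal well above the array's background, and Olr1 and Scara3 on none once spots with an outlier mark had been removed. The value used is the processed signal of the scanner software, an intensity on a linear scale. The lowest signal called well above background was 23.8 on the CpG array, 26.7 on the IFN-γ with αIL-10R array and 26.3 on the Triple array. No spot that was not a control was saturated, and control spots were not checked for it. Fold differences were taken after each array had been scaled by its 75th percentile, and a gene was called higher or lower past 2-fold. The technical error given as ± is the SD of a log2 fold from replicate spots of similar signal within the arrays, and it holds no difference between cultures. Signals of different probes cannot be compared with each other.

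**Figure D1:**
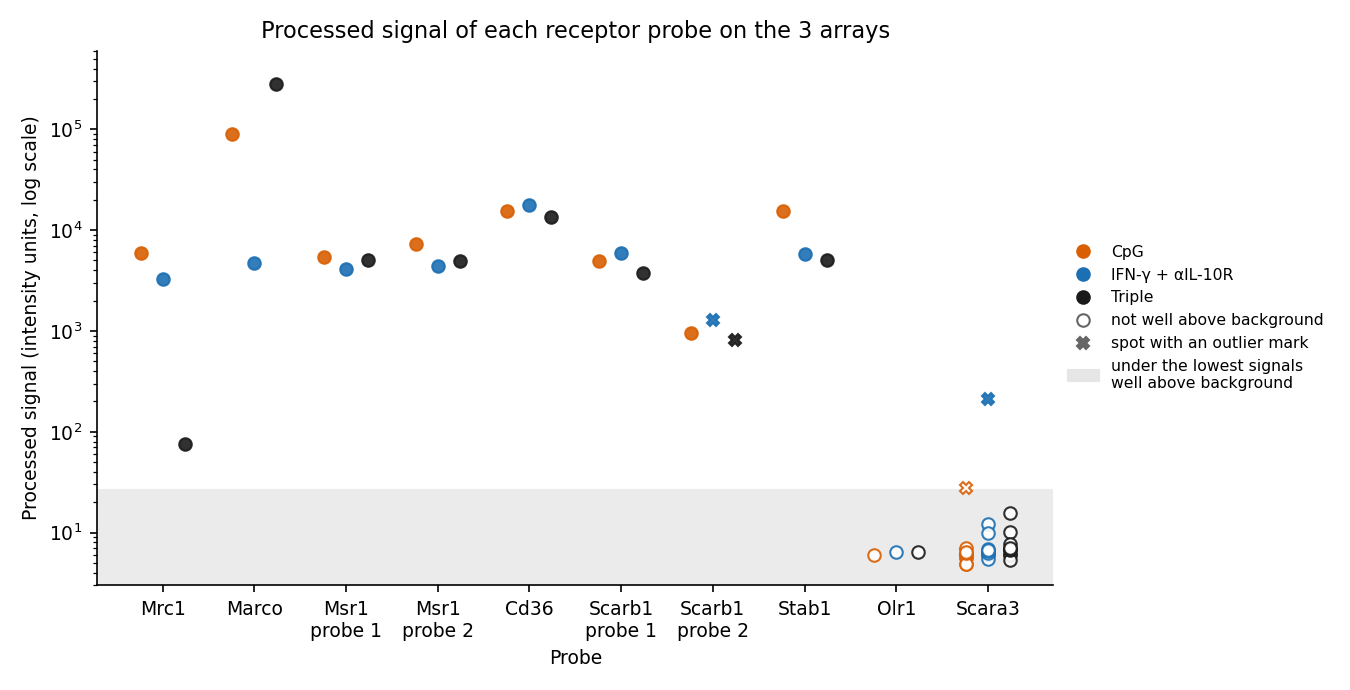
Processed signal (intensity units, log scale) of every probe of the 8 receptor genes on the CpG, IFN-γ with αIL-10R and Triple arrays, 1 point per spot. Mrc1 falls to 76.4 in Triple, Marco reaches 283316 in Triple, and the points of Olr1 and all kept spots of Scara3 lie in the shaded range under the lowest signals well above background.

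Mrc1, Marco and Stab1 were the members past 2-fold in at least 1 comparison, and the windows around their transcription starts are shown because these genes carry the differences. The windows come from RefSeq (GRCm38.p6) and run 5′ to 3′ from 250 bases before to 50 bases after the start. Capitals mark the letters GAGGAA, which resemble the core bound by PU.1 and other ETS factors, on either strand (TTCCTC).
Mrc1, GRCm38.p6 chr2:14229164-14229463, plus strand: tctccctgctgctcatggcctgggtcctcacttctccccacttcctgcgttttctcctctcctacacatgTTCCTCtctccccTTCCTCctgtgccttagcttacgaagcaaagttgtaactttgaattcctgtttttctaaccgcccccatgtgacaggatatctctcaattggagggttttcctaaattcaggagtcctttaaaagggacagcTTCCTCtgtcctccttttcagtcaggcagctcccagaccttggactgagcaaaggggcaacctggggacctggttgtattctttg
Marco, GRCm38.p6 chr1:120504975-120505274, minus strand: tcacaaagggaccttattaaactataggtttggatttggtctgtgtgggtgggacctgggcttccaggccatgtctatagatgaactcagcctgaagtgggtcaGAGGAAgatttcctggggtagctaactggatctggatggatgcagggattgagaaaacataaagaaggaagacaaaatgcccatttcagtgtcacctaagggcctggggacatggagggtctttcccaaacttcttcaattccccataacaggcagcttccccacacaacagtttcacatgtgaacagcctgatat
Stab1, GRCm38.p6 chr14:31168592-31168891, minus strand: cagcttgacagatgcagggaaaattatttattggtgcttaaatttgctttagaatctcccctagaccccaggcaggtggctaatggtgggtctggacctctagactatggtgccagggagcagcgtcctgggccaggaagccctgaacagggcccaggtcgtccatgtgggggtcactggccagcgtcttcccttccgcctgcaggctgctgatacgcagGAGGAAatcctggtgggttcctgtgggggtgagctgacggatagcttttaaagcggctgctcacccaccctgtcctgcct
RefSeq windows were matched for 5 of the 8 genes, namely Cd36, Marco, Mrc1, Olr1 and Stab1. GAGGAA was found in 4 of these 5, at 3 places in Mrc1 and at 1 each in Marco, Stab1 and Olr1, and 28.3% of all 32851 windows of the same length hold it. AGGTCA, letters that nuclear receptors recognise, was found in Cd36 and Olr1 (16.3% of all windows), and the AP-1 letters TGANTCA in Olr1 only (7.81%). The GAS-like TTCNNNGAA (8.30% of all windows), the kB-like GGANTTTCC (1.25%), the E-box CACGTG (7.15%) and the antioxidant response-like TGACNNNGC (12.4%) were found in none of the 5. No match overlapped a match of another motif. A match is a description of the letters, and no binding was measured.

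Mrc1 gave a processed signal of 5910 in CpG, 3274 in IFN-γ with αIL-10R and 76.4 in Triple. The signal with all agents together was thus far under that with either CpG or IFN-γ with αIL-10R, though it still lay above background. The log2 fold of Triple over IFN-γ with αIL-10R was -5.39 ± 0.19, or 41.9-fold lower, and that of Triple over CpG was -6.22 ± 0.19, or 74.4-fold lower. CpG over IFN-γ with αIL-10R gave 0.83 ± 0.07, which is under 2-fold. Among the 15894 genes detected on every array, Mrc1 ranked first from the lowest in Triple over CpG and in place 2 in Triple over IFN-γ with αIL-10R. Genes not well above background on every array, such as any that fell under it in Triple, were not ranked. In such bulk RNA, fewer cells that express a gene and less RNA per cell cannot be told apart. The single probe, for NM_008625, lies on mm9 chr2:14253273-14253332, plus strand. With a different background correction, which adds a constant to every signal, the log2 folds were -4.45 over IFN-γ with αIL-10R and -5.25 over CpG.

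Marco gave 90138 in CpG, 4671 in IFN-γ with αIL-10R and 283316 in Triple. The order was opposite to that of Mrc1 at the Triple end, with the highest signal under all agents together and the lowest without CpG. Triple exceeded IFN-γ with αIL-10R by a log2 fold of 5.95 ± 0.07, or 62.0-fold, and CpG exceeded it by 4.25 ± 0.07, or 19.0-fold. Triple was 3.27-fold above CpG, a log2 fold of 1.71 ± 0.08. Of the 15894 genes, 5 had a higher log2 fold than Marco in Triple over IFN-γ with αIL-10R, against 404 in Triple over CpG. Genes not detected on every array were not ranked. Among these, Il1b, Il6 and Il12b had lower bounds of 10.2, 9.86 and 8.30 in Triple over IFN-γ with αIL-10R and are not among the 5. The single Marco probe, for NM_010766, is listed on the minus strand of mm9 chromosome 1. It is 60 bases long but has a listed span of only 20 bases, so no position is given.

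Stab1 gave 15466 in CpG, 5726 in IFN-γ with αIL-10R and 5012 in Triple. CpG alone stood apart from the other conditions, which differed from each other by a log2 fold of -0.16 ± 0.07. CpG over IFN-γ with αIL-10R was 2.66-fold (log2 1.41 ± 0.07), and Triple over CpG was 2.97-fold lower (log2 -1.57 ± 0.08). The probe, for NM_138672, lies on mm9 chr14:31952288-31952347, minus strand.

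Msr1, the class A receptor first known for acetylated low-density lipoprotein, was read by 2 probes for NM_031195, both on the minus strand of mm9 chromosome 8. The brighter probe gave 7309 in CpG, 4397 in IFN-γ with αIL-10R and 4968 in Triple, and the other gave 5420, 4110 and 5008 in the same order. By processed signal both probes were highest in CpG and lowest in IFN-γ with αIL-10R, and neither passed 2-fold. The brighter probe had log2 folds of 0.21 ± 0.07 for Triple over IFN-γ with αIL-10R, -0.50 ± 0.08 for Triple over CpG and 0.71 ± 0.07 for CpG over IFN-γ with αIL-10R. The other probe had 0.32, -0.06 and 0.37, so the size of the CpG difference depended on the probe, and the -0.06 lies within the shift of 0.07 that another scaling gave.

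The class B receptors stayed within 2-fold. Cd36 gave 15337 in CpG, 17569 in IFN-γ with αIL-10R and 13415 in Triple, with log2 folds of -0.36 ± 0.07 for Triple over IFN-γ with αIL-10R, -0.14 ± 0.08 for Triple over CpG and -0.22 ± 0.07 for CpG over IFN-γ with αIL-10R. Its range over the arrays was smaller than that of 66.0% of the 15894 genes. Scarb1, the receptor for high-density lipoprotein, gave 4879 in CpG, 5937 in IFN-γ with αIL-10R and 3710 in Triple, and its log2 fold of Triple over IFN-γ with αIL-10R was -0.65 ± 0.07. A second Scarb1 probe gave 959, 1297 and 815 in the same order, but its spots on the IFN-γ with αIL-10R and Triple arrays carried an outlier mark of the background and were left out. With those spots kept, its log2 fold of Triple over IFN-γ with αIL-10R was -0.63. Both class B genes were highest in IFN-γ with αIL-10R and lowest in Triple.

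Olr1 gave 5.95 in CpG, 6.37 in IFN-γ with αIL-10R and 6.35 in Triple, all under the lowest signal well above background, so no fold is given. Scara3 was printed in 10 replicate spots per array. The kept spots ranged from 4.88 to 7.09 on the CpG array (8 spots), from 5.47 to 12.2 on the IFN-γ with αIL-10R array (9 spots) and from 5.36 to 15.8 on the Triple array (10 spots). None of the kept spots was well above background. The spot that was well above background, at 211.5 on the IFN-γ with αIL-10R array, carried an outlier mark and stood alone among the 10 copies of the same probe.

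Set beside all genes, the members did not move in 1 direction. In Triple over IFN-γ with αIL-10R, 1 of the 8 members, Marco, was more than 2-fold higher, and 1, Mrc1, was more than 2-fold lower. Among all 33597 genes measured, 3.53% were higher and 5.00% lower by the same rule, and among the 15894 that were detected on every array, which hold 6 members, 5.13% were higher and 8.24% lower. In Triple over CpG, 1 member, Marco, was higher (4.08% of all genes, 5.99% of those well above background) and 2, Mrc1 and Stab1, were lower (4.55% and 7.00%). In CpG over IFN-γ with αIL-10R, 2 members, Marco and Stab1, were higher (2.75% and 3.74%) and 0 were lower (3.18% and 4.84%). Against both other arrays at once, Triple was higher for 1 member, Marco (2.06% of all genes, 2.54% of those well above background), and lower for 1, Mrc1 (2.74% and 4.81%). With counts of 0 to 2 of 8, these shares say little about the family as a whole, and its differences rest on the 3 named genes. The comparisons share arrays, so that Triple stands in both of its comparisons and the values are not independent.

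The medians of the 6 detected members were -0.26 in Triple over IFN-γ with αIL-10R, -0.42 in Triple over CpG and 0.77 in CpG over IFN-γ with αIL-10R, beside medians over the 15894 genes of -0.04, -0.05 and -0.00173. The range ran from -5.39 to 5.95, from -6.22 to 1.71 and from -0.31 to 4.25. Mrc1 and Marco thus lay at opposite ends of the range when Triple was compared with IFN-γ with αIL-10R. Mrc1 had a larger range over the 3 arrays than 99.9% of the 15894 genes, Marco than 99.8% and Stab1 than 90.1%, against 67.4% for Msr1 and 63.4% for Scarb1.

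**Figure D2:**
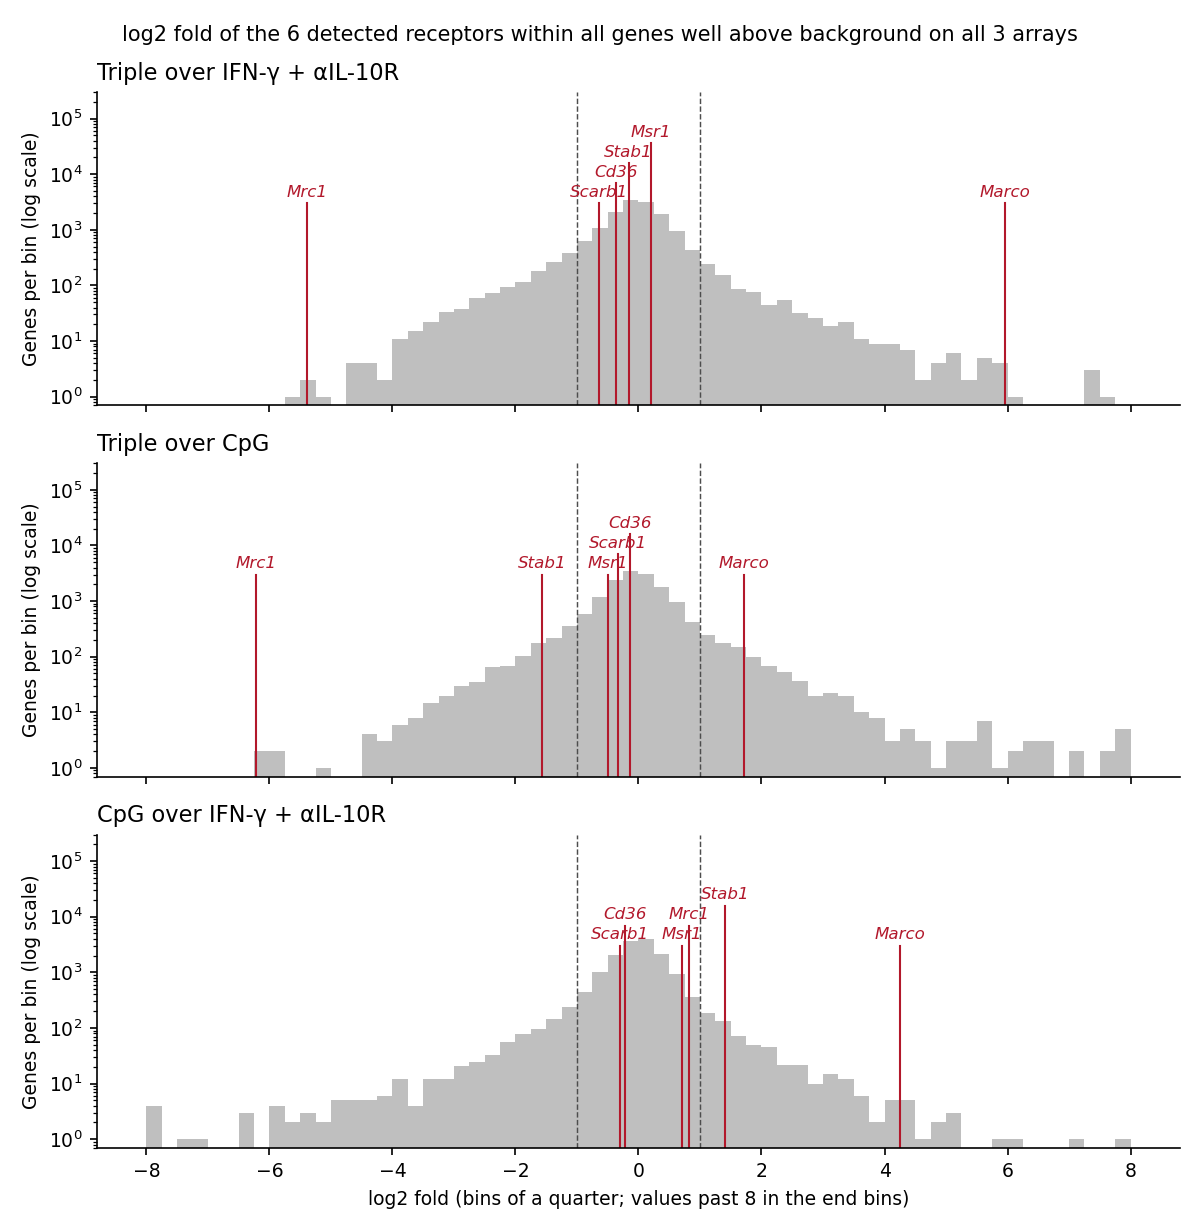
Number of genes (log scale) by log2 fold in each comparison, for the 15894 genes detected on every array, with the 6 detected receptors as red lines and 2-fold as dashed lines. Mrc1 (-5.39 and -6.22) and Marco (5.95 and 1.71) lie on opposite sides in both comparisons of Triple, and Stab1 passes 2-fold on either side of the CpG array only.

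The genes whose values over the 3 arrays were nearest to each of these members were found by distance between log2 values centred on each gene's mean, among 10695 genes with a RefSeq symbol that were well above background on every array. With 3 arrays such likeness is weak, and many genes can share a pattern. Nearest to Mrc1 were Rnf150 (distance 0.32), Pcp4l1 (0.33) and Nxpe5 (1.1), so only the first pair was close. Rnf150 gave 3749 in CpG, 2831 in IFN-γ with αIL-10R and 56.2 in Triple, and Pcp4l1 gave 9531, 6640 and 168.8. Nearest to Marco were the membrane-type metalloproteinase Mmp14 (0.23), the fatty acid receptor Gpr84 (0.63) and the Ras activator Rasgrp1 (0.79). Mmp14 gave 1315, 79.5 and 3862, and Gpr84 gave 13309, 1241 and 46953, on the CpG, IFN-γ with αIL-10R and Triple arrays. Nearest to Stab1 were Ggt5 (0.02), the mannosidase Man1a (0.02) and the C-type lectin Clec4a3 (0.07). Clec4a3 gave 18683, 7014 and 6459, and Man1a gave 182.7, 66.8 and 57.8.

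**Figure D3:**
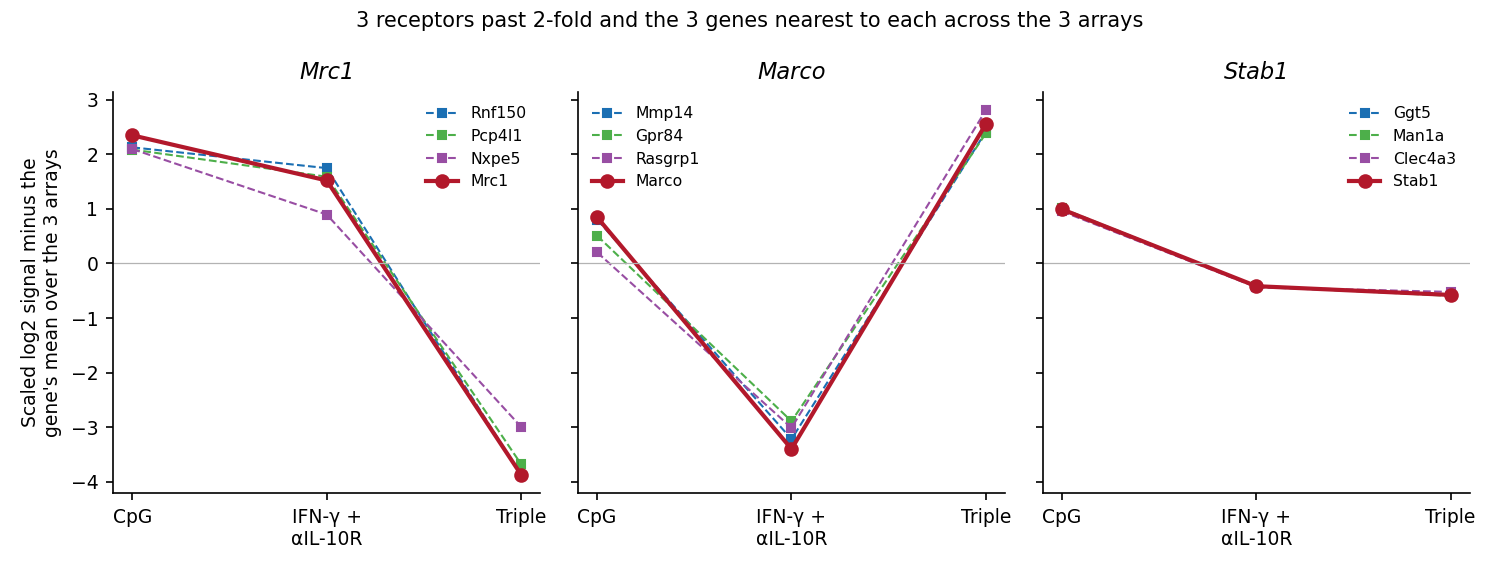
Scaled log2 signal, centred on each gene's mean over the 3 arrays, of Mrc1, Marco and Stab1 (red) and of the 3 genes nearest to each (dashed). Nxpe5 departs from Mrc1 (distance 1.1), whereas the lines of the genes nearest to Stab1 (distances 0.02 to 0.07) cover each other.

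Of 17 other scavenger receptors and related genes measured, 11 were well above background on at least 1 array and 7 on all 3. For this and the later lists, 3.53% of all 33597 genes were higher and 5.00% lower in Triple over IFN-γ with αIL-10R (5.13% and 8.24% of those detected on every array). The shares were 4.08% and 4.55% in Triple over CpG (5.99% and 7.00%). In CpG over IFN-γ with αIL-10R they were 2.75% and 3.18% (3.74% and 4.84%). In Triple over IFN-γ with αIL-10R, 1 of the 17 was higher and 4 were lower, with a median of -0.54 over the 7, and in Triple over CpG 1 was higher and 3 were lower, with a median of -0.30. The 4 include Megf10, not detected in Triple, whose bound of -1.03 passed 2-fold under 5 of 8 scalings. The 3 include Colec12, which was detected in CpG only (68.2) and is outside the 7, as is Megf10. CXCL16, which is both a chemokine and a receptor for oxidised lipoprotein, was higher in Triple (27970) than in CpG (11399) or IFN-γ with αIL-10R (8353). Cd68, the endosomal class D receptor, gave 153505 in CpG, 190933 in IFN-γ with αIL-10R and 83203 in Triple, a log2 fold of -1.17 between the last of these. Lrp1, a large receptor that clears lipoprotein remnants, gave 15394, 12652 and 4754, with -1.38 and -1.64 for Triple over IFN-γ with αIL-10R and over CpG. Cd5l, a secreted protein with scavenger receptor domains, was highest in CpG, with 76373 there, 18603 in IFN-γ with αIL-10R and 17080 in Triple, and the sign of its log2 fold between the last of these (-0.09) changed between scalings. Scarb2, the lysosomal class B receptor, gave 2588, 4554 and 2027. Cd163, the haemoglobin scavenger receptor, was not well above background on any array, with 5.45, 6.11 and 6.12. In CpG over IFN-γ with αIL-10R 2 genes were higher and 1 was lower, with a median of 0.26. These counts include Colec12 as higher and Megf10 as lower, both as bounds.

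Genes of lipid uptake, storage and efflux were well above background on all 3 arrays for all 14 measured. In Triple over IFN-γ with αIL-10R 2 were higher and 4 lower (median -0.29), in Triple over CpG 1 was higher and 5 were lower (median -0.46), and in CpG over IFN-γ with αIL-10R 3 were higher and 0 lower (median 0.26). Nr1h3, which encodes the oxysterol receptor LXRα, had an order like that of Marco, with 17776 in CpG, 4388 in IFN-γ with αIL-10R and 47660 in Triple. Its target Abca1, the cholesterol exporter, went the other way in Triple, with 2625, 1625 and 598.7. Lpl, the lipoprotein lipase, gave 144710, 149111 and 38777, and Lipa, the lysosomal acid lipase, gave 19155, 24781 and 7851. Fabp4, a fatty acid carrier, was highest in CpG (4048, against 774.8 and 1029). The log2 fold of another cholesterol exporter, Abcg1, in Triple over IFN-γ with αIL-10R was -1.07, and it was past 2-fold under 5 of 8 scalings. The count of 2 higher in that comparison was 1 under 2 of the scalings. Pparg, a nuclear receptor known to induce Cd36, stayed within 2-fold, with 8913, 6774 and 6026.

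Partners of the receptors in signalling and trafficking were mostly within 2-fold. Of 16 measured genes, 14 were detected on every array, and 1 was higher and 2 were lower in Triple over IFN-γ with αIL-10R, 0 and 2 in Triple over CpG, and 3 and 0 in CpG over IFN-γ with αIL-10R. The medians were 0.08, -0.03 and 0.15, and those of both Triple comparisons changed sign between scalings. The count of 1 higher in Triple over IFN-γ with αIL-10R was 2 under 3 of 8 scalings, where Vav1 (0.91) passed 2-fold. In the same comparison Gga2 (-0.92) was within 2-fold under 6 of 8 scalings and lower under the others. Vav3 in Triple over CpG (-0.92) was within 2-fold under 7 of 8 scalings. Syk, the kinase downstream of several uptake receptors, gave 32408 in CpG, 9302 in IFN-γ with αIL-10R and 52628 in Triple. The tetraspanin Cd81 gave 24448, 10945 and 4378, and Cd9, which associates with CD36, gave 15341, 8504 and 6182. The guanine exchange factor Vav1 gave 107266, 45256 and 83333, and the related Vav3 gave 1039, 1304 and 529.2.

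Markers of alternative activation and of resident macrophages were detected for 6 of 14 measured genes. Mrc1 belongs to this set by common use, and Clec10a, a galactose-binding lectin of macrophages, was also low in Triple, with 478.2 in CpG, 1753 in IFN-γ with αIL-10R and 47.7 in Triple (log2 folds of -5.17 and -3.27 for Triple). Its close relative Mgl2 differed from it, with 24354, 51331 and 97240 in the same order, so the lectins of this set did not share a direction. Folr2, the folate receptor of resident macrophages, gave 44845, 48340 and 18236. Tgm2, the tissue transglutaminase, was low in CpG only, with 8482, 86441 and 66919. Over the set 0 genes were higher and 2 lower in Triple over IFN-γ with αIL-10R, 2 and 2 in Triple over CpG, and 0 and 3 in CpG over IFN-γ with αIL-10R, with medians over the 6 of -0.66, -0.45 and -0.74. The count of 0 higher in Triple over IFN-γ with αIL-10R was 1 under 3 of 8 scalings, where Mgl2 (0.95) passed 2-fold. It was also 1 without the background filter, from the dim signals of Ccl17 (6.24 in IFN-γ with αIL-10R and 18.9 in Triple). In the same comparison Il4ra (-0.99) was within 2-fold under 5 of 8 scalings and lower under the others, which adds to the 2 lower. Retnla and Ccl17 were among the 8 that were not well above background on any array.

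Transcription factors known to act on macrophage receptor genes included some that were lowest in Triple, like Mrc1, and some that were highest there, like Marco. Cebpa was lowest in Triple, with 1399 in CpG, 1101 in IFN-γ with αIL-10R and 213.5 in Triple. Klf4 gave 529.8, 554.4 and 1649, and Bhlhe40 gave 172.5, 76.6 and 281.7, both highest in Triple. Irf8, a factor induced by IFN-γ, was low in CpG only, with 20183, 77123 and 89361. Of 13 measured factors, 12 were detected on every array. In Triple 2 were higher and 2 lower than in IFN-γ with αIL-10R, 2 higher and 2 lower than in CpG, and in CpG over IFN-γ with αIL-10R 1 was higher and 1 lower (2 lower with spike-in scaling, where Irf4 passed 2-fold). The medians were 0.29, 0.01 and 0.15, of which the second changed sign between scalings. In Triple over IFN-γ with αIL-10R, Cebpb (0.91) was within 2-fold under 5 of 8 scalings and higher under the others. Irf4 (a bound of -0.91) was within 2-fold there under 6 of 8 scalings and lower under the others.

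**Figure D4:**
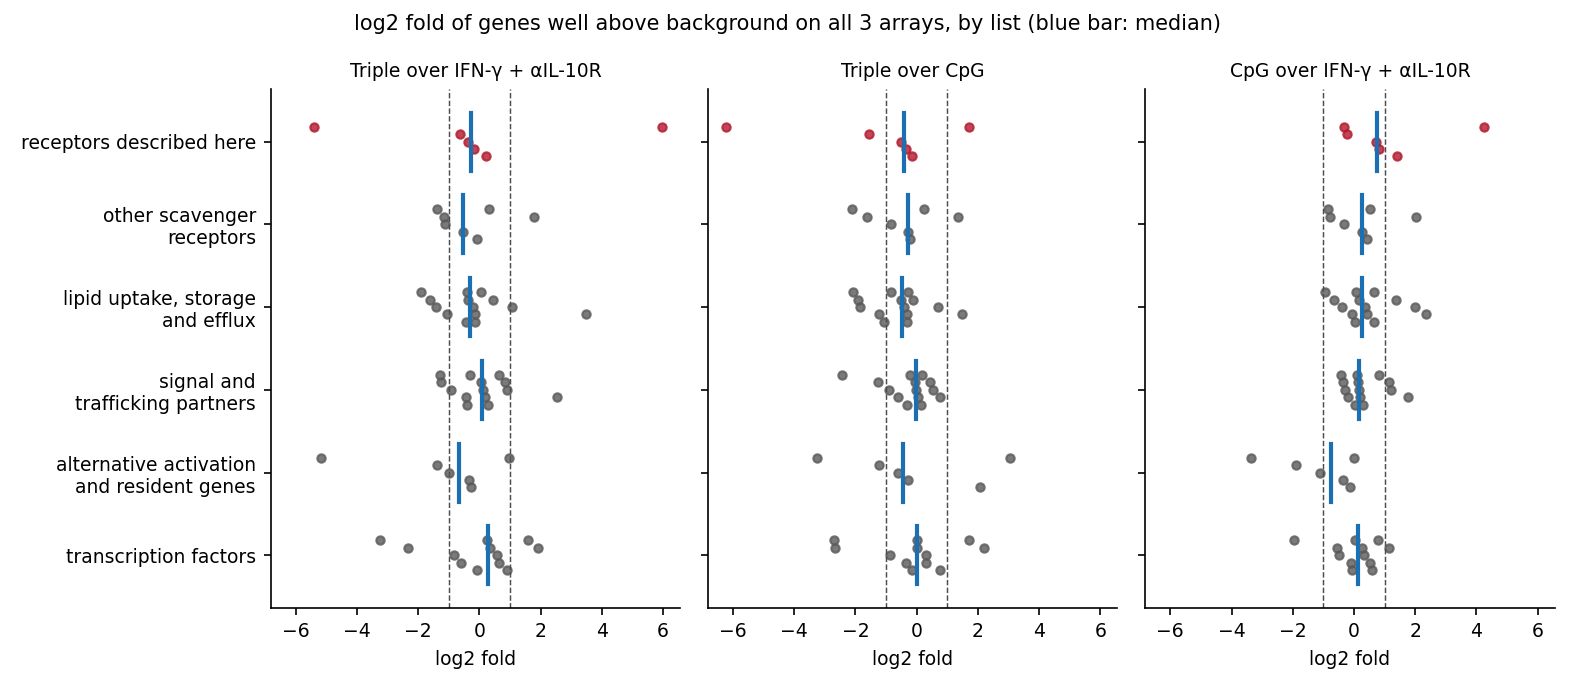
log2 fold of each gene well above background on all 3 arrays, by list (rows) and comparison (panels), with the receptors in red, the median of each row as a blue bar and 2-fold as dashed lines. In Triple over IFN-γ with αIL-10R the receptors run from -5.39 to 5.95 and all row medians lie between -0.66 and 0.29. Scaling turns the sign of 2 row medians for the signal and trafficking partners and of 1 for the transcription factors.

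Response genes of the stimuli served as a check of the labels. The chemokine Cxcl9, induced by IFN-γ, gave 38.6 in CpG, 14431 in IFN-γ with αIL-10R and 230855 in Triple, and Gbp2 gave 3111, 239515 and 252036. Irf1 gave 9196, 132675 and 123964. Nos2, the inducible nitric oxide synthase, was high in Triple only, with 154.7, 448.2 and 72449. Tnf gave 15636, 7771 and 90432, and Il10 gave 3117, 1271 and 9957. Ciita, the class II transactivator, which IFN-γ is known to induce, gave 113.5, 258.1 and 63.3 and was the 1 gene lower in Triple over IFN-γ with αIL-10R (-2.00); it is named after its values were seen. Over 11 such genes, 8 were higher and 1 was lower in Triple over IFN-γ with αIL-10R (median of 8 genes 2.85), 10 higher and 0 lower in Triple over CpG (3.20), and 5 higher and 5 lower in CpG over IFN-γ with αIL-10R (-1.38). In the last comparison Tnf (0.98) was within 2-fold under 3 of 8 scalings and higher under the others.

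Markers of macrophages were well above background on every array for 8 of 8 measured genes, with summed signals of 764500 in CpG, 725663 in IFN-γ with αIL-10R and 713930 in Triple. A summed signal adds different probes and serves only to set the arrays side by side, and the gene named as leading it is that of the probe with the highest signal, not the most abundant RNA. Csf1r led it in CpG (196810) and IFN-γ with αIL-10R (230482), and Aif1 in Triple (191659). One of them, Cd68, is also counted among the scavenger receptors above. Between arrays 1 of the 8 was higher and 1 lower in Triple over IFN-γ with αIL-10R, 1 and 0 in Triple over CpG, and 2 and 2 in CpG over IFN-γ with αIL-10R.

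Markers of other cells are given by count and summed signal, and the part of such cells in the receptor values was not tested. Of 5 T cell genes 3, 3 and 2 were well above background in CpG, IFN-γ with αIL-10R and Triple (summed signal 1092, 1272 and 975.8, led by Cd3e, with Cd3d and Cd3g not detected). Of 5 B cell genes 2 were on each array (884.6, 278.3 and 183.5, led by Cd79b, with Ms4a1 not detected). Of 4 NK cell genes 0, 1 and 1 were (24.2, 592.1 and 108.7), the one being Klrk1, and Ncr1 was not detected. Of 7 neutrophil genes 5, 4 and 4 were (3844, 9448 and 4873), led by Elane in CpG and by Ly6g on the others, and Mpo was not detected. Of 5 dendritic cell genes 2, 3 and 4 were (36439, 36268 and 32835), led by Siglech, with Flt3 not detected. Among them Ccr7 gave 319, 224.9 and 2892, Zbtb46 gave 25.1 (not detected), 36.3 and 132.9, and Xcr1 was detected in Triple only (60.7). Of 4 fibroblast genes 3, 2 and 3 were (538.7, 326.1 and 481.5, led by Col1a2). Of 5 endothelial genes 2, 1 and 1 were (5395, 5759 and 5736, led by Kdr, with Tek not detected). Of 6 erythroid and platelet genes 1 was on each array, namely Pf4 (47339, 32005 and 11025), and the globins were not detected. Of 4 osteoclast genes 3 were on each array (2840, 4098 and 1524), led by Atp6v0d2 in CpG and by Ocstamp on the others. None of 3 mast cell and basophil genes was detected (18.8, 20.0 and 20.1, led by Ms4a2).

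Pf4, which macrophages also express, was highest in CpG and lowest in Triple, as were Mrc1 and Stab1. The genes commonly used to check scaling differed little between arrays for Actb and Gapdh, with log2 folds of Triple over IFN-γ with αIL-10R of 0.09 and 0.03 whose sign changed between scalings, and more for Hprt (-0.72) and Tbp (-0.19). Other scalings moved the median gene in Triple over IFN-γ with αIL-10R by 0.114 at most upward and by -0.134 with spike-in probes, and every sign given for the probes that stand for the 6 detected members held under each of them.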

How the data were processed

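RNA of 3 BMDM samples, 1 per condition, was labelled with Cy3 and read on Agilent mouse arrays. Per the file headers, the deposited processed signal is an intensity from Agilent Feature Extraction 10.10.1.1 after background subtraction and detrending within the array, with dim spots replaced by a surrogate. All 3 arrays came from 1 slide and had 1 scan time. The authors also deposited log2 values, which were the scanner's log2 signal less a constant for the array (8.52, 8.54 and 8.40), and these served as an alternative.

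Of 59305 spots that were not controls, 46.0% (CpG), 44.8% (IFN-γ with αIL-10R) and 44.4% (Triple) were well above background. Spots with an outlier mark (3.04%, 3.78% and 3.33%) were removed, and spots of 1 probe were averaged as log2. The log2 75th percentile over probes well above background on all arrays was subtracted (signals of 4550, 4473 and 4377). A gene was represented by its brightest probe. A dimmer signal was set to the lowest one called well above background on its array. A gene was called higher if well above background in the first array and past 2-fold, and lower if so in the second. The calls were checked on simulated data. Members and lists were chosen with earlier results of these data known. From each list up to 6 genes past 2-fold with the largest log2 fold among those well above background on all arrays were named, plus Cd68, Cd163 and Pparg. Some genes of the lists are counted in them but not reported here by name. Genes not detected on every array, markers and genes within 2-fold that are named beside these were chosen after their values were seen. Probe positions are mm9 and promoters GRCm38.p6. The RefSeq table held 27509 of the 29150 RefSeq accessions of probes, those of all 8 members under their own symbols. Processing used Python 3.11.15, numpy 2.4.6, pandas 2.3.3, and limma 3.58.1 in R 4.3.3 for the normexp correction. Alternatives changed the background correction, scaling, filter, probe choice, outlier marks and fold threshold.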

Additional observations from a re-analysis of the deposited data

How the results depend on the processing

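The counts of members past 2-fold were recomputed under 15 alternatives, and 4 of 90 values differed by more than 1.5 times, each from the fold threshold itself. With a 1.5-fold threshold, 2 members were lower in Triple over IFN-γ with αIL-10R and 4 were higher in CpG over IFN-γ with αIL-10R. With a 3-fold threshold, 1 member was lower in Triple over CpG and 1 was higher in CpG over IFN-γ with αIL-10R. The other 86 stayed within that margin. No log2 fold of a detected member changed sign among 234 recomputed values, of which 16 moved by more than the technical SD pooled over replicate spots of all signals (0.11 to 0.12). Of these, 2 were those of Mrc1 with the normexp correction (-4.45 and -5.25), where the added constant of 50 is close to the Triple signal of 76.4, and 2 came from averaging the probes of Msr1. The other 12 were the folds of the 6 receptors between Triple and IFN-γ with αIL-10R after scaling by the 75th percentile of all probes or by 5 spike-in probes. Against the SD at similar signal, given as ± in the report, 34 moved, among them those of the 5 receptors other than Mrc1 between Triple and IFN-γ with αIL-10R under 5 of the scalings; the shifts of Mrc1 with scaling were under its 0.19. That second count was added after the data had been seen.

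For the lists, whose alternatives were added after the data had been seen, 51 of 540 counts moved by more than 1.5 times. The number of arrays limits the precision, and the technical SD of a log2 value reached 0.19 under a signal of 200 against 0.05 over 2000 on the Triple array. The signal of Mrc1 in Triple is in that dim range.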
